A study of Mus musculus with 14 samples.

Results

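Hedgehog signalling was followed through 7 genes in Y1 cells, a mouse adrenocortical tumour cell line, 5 h after fibroblast growth factor 2 (FGF-2) was given together with serum. The 7 members were taken by name: Gli1, Gli2, Gli3, Ptch1, Smo, Sufu and Hhip, out of 24465 genes in the count files. Their chromatin was followed through the 34 regions of H3K27ac (histone H3 acetylated at lysine 27, found at active promoters and enhancers) that the authors' annotation assigned to these genes, out of 40772 regions. All cells were starved of serum for 48 h. The serum + FGF-2 group then received 10% fetal bovine serum with 10 ng/mL FGF-2, and the serum group received 10% fetal bovine serum with 0 ng/mL FGF-2, so both groups share starvation and refeeding. Each group has 3 libraries of poly(A)-selected RNA and 2 of H3K27ac, each of the second kind with an input library. The labels name 1 cell line and do not say whether replicates came from separate cultures, so the spread between libraries may be technical.

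In mammals, Hedgehog ligands bind Patched receptors, which otherwise hold Smoothened inactive. Released Smoothened acts at the primary cilium, where GLI transcription factors are freed from SUFU and from proteolytic processing, and Gli1 and Ptch1 are direct target genes in many tissues. In the adrenal gland, Shh is made by outer cortical cells and is received by Gli1-positive cells of the capsule that can renew the cortex.

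Smo, the transducer of the pathway, was the 1 of 5 tested members that passed the test, where 46.3% of all tested genes did. It fell, with a fold of 0.585 for serum + FGF-2 over serum alone. Gli1, Gli2, Ptch1 and Sufu did not pass the test, and Gli3 and Hhip were listed at 0 counts in all 6 RNA libraries and carried no H3K27ac region. The promoters of the 5 members with RNA counts were acetylated in all 4 H3K27ac libraries, and none of these regions passed the test. Of the 34 member regions 5 passed the test, where 16.3% of all regions did. These 5 lay in introns of Gli2 and Sufu, where 2 rose and 3 fell, beside 12.6% and 3.73% of all regions.

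RNA depth in genes was 11272041, 12696426 and 6403095 counts with serum + FGF-2 and 9101089, 8159993 and 5625004 counts with serum alone. Levels are given as CPM, a gene's counts relative to the counts in all genes of the library after trimmed-mean (TMM) scaling, and log2 fold changes as serum + FGF-2 over serum alone with their standard error (SE). Markers of the adrenal cortex were present but incomplete: 9 of 11 were detected, and Cyp21a1 and Nr0b1 were listed at 0. Their summed level was 2270 to 3750 CPM with serum + FGF-2 and 664 to 911 CPM with serum alone, led by Star. Star alone averaged 2300 CPM with serum + FGF-2 and 165 CPM with serum alone. Of the 11, 6 were tested, 1 rose and 2 fell, beside 22.1% and 24.2% of all tested genes. The median log2 fold change of these 6 was −0.075. Markers of capsule and fibroblasts summed to 1840 to 2640 CPM with serum + FGF-2 and 2520 to 3190 CPM with serum alone, led by Col1a1. Col1a1 alone averaged 2100 CPM with serum + FGF-2 and 2940 CPM with serum alone. Of the 9, 6 were detected, with Col1a2, Dcn and Tcf21 at 0, and 2 were tested and did not pass. Medulla markers summed to 0 to 0.195 CPM with serum + FGF-2 and 0.0956 to 0.166 CPM with serum alone, with 3 of 6 detected and Th and Dbh among those at 0. Endothelial and blood markers summed to 9.27 to 11.8 CPM with serum + FGF-2 and 8.6 to 14.6 CPM with serum alone, with 5 of 6 detected and Hbb-bs at 0. The part of these levels in the results on Hedgehog genes was not tested.

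The promoters of 4 members show the contrast between acetylated and unacetylated loci, with Smo as the gene that fell, Ptch1 as the widest acetylated promoter, and Gli3 and Hhip as loci with no region. Sequences are from RefSeq on GRCm38.p6, the build the files call mm10, from 250 bases before to 50 bases after the annotated start, 5′ to 3′ on the gene's strand, with CG dinucleotides in capitals.
Smo, chr6:29735247-29735546, plus strand: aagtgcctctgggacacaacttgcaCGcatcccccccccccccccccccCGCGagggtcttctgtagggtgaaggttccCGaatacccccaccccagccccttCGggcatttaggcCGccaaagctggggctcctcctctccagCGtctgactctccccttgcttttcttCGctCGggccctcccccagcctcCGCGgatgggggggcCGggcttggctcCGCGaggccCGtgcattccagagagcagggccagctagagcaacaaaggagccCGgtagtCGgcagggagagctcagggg
Ptch1, chr13:63565686-63565985, minus strand: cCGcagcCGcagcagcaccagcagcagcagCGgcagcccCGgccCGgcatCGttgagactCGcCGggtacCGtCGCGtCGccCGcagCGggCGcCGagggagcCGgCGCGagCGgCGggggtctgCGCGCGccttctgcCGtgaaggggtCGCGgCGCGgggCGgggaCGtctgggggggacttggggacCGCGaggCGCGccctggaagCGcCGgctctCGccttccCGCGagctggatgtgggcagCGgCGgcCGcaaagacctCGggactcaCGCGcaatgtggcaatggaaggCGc
Gli3, chr13:15463473-15463772, plus strand: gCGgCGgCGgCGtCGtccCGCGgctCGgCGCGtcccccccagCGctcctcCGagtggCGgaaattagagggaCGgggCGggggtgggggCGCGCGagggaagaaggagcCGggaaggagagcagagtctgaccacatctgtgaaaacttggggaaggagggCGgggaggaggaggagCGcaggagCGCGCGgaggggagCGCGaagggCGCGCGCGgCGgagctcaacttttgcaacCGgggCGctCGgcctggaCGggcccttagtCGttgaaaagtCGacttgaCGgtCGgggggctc
Hhip, chr8:80057959-80058258, minus strand: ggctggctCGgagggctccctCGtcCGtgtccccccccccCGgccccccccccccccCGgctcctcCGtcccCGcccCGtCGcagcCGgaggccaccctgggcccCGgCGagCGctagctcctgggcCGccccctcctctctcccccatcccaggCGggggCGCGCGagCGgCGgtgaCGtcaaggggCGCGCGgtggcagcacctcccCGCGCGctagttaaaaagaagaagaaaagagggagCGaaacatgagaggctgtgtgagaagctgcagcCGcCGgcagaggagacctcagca
These windows held 17 CG dinucleotides in Smo, 47 in Ptch1, 39 in Gli3 and 30 in Hhip, against a median of 7 over 32851 mouse promoters of the same length. The windows of Gli2 and Sufu held 28 and 12, and of the Sufu window 9 of 300 bases lay in its H3K27ac region. The windows of Gli3 and Hhip, loci with no region, held more CG dinucleotides than 95.6% and 88.3% of promoters. The part of CG content in acetylation was not tested. The GLI-binding core GACCACCCA was searched on both strands (TGGGTGGTC on the other). None of the 6 member promoters in the table (all members but Gli1) held it, exactly or with up to 1 mismatch. Exact matches occurred in 0.253% of all promoters and matches with up to 1 mismatch in 6.74%.

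Smo encodes Smoothened, the membrane protein through which ligand binding reaches the GLI factors, and lies at chr6:29735497-29761366. Smo had 326.3, 349.6 and 244.1 CPM with serum + FGF-2, against 553.8, 586.1 and 433.0 CPM with serum alone. Every serum + FGF-2 library lay below every serum library. Smo averaged 306.7 ± 55.4 CPM with serum + FGF-2 and 524.3 ± 80.7 CPM with serum alone (SD, n = 3 each). The log2 fold change was −0.77 ± 0.17 (SE), with an adjusted p of 0.00402 by edgeR's quasi-likelihood test with Benjamini-Hochberg adjustment. Smo was thus 1 of 5 tested members called, where 46.3% of 10374 tested genes were called, 24.2% as lower and 22.1% as higher. Scaled by library totals, 1035 genes were called higher and 4675 lower, against 2295 and 2512 with TMM. Library totals move the median log2 fold change of all genes to −0.36, and upper-quartile scaling moves it to −0.16. Genes were called at an adjusted p under 0.05, and Smo ranked 2245 by p among all tested genes. It was also the 1 of 5 tested members whose groups did not overlap, where 57.5% of tested genes did not overlap. In the authors' deposited DESeq2 table Smo had a log2 fold change of −0.75 and an adjusted p of 0.000115. A RefSeq pseudogene, Gm13717, lies inside the Smo gene. In these bulk libraries, fewer cells with the transcript and less of it per cell cannot be told apart.

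The genes whose log2 CPM followed Smo most closely over the 6 RNA libraries were Iars2, Proser3, Cdc7, Mov10 and Exd2, with Pearson r of 0.9964 to 0.9987. All 5 fell. Iars2 encodes a mitochondrial tRNA synthetase, Cdc7 a kinase of DNA replication and Mov10 an RNA helicase. The 6 points share 2 groups and their depths, so these values describe likeness only.

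**Figure D1:**
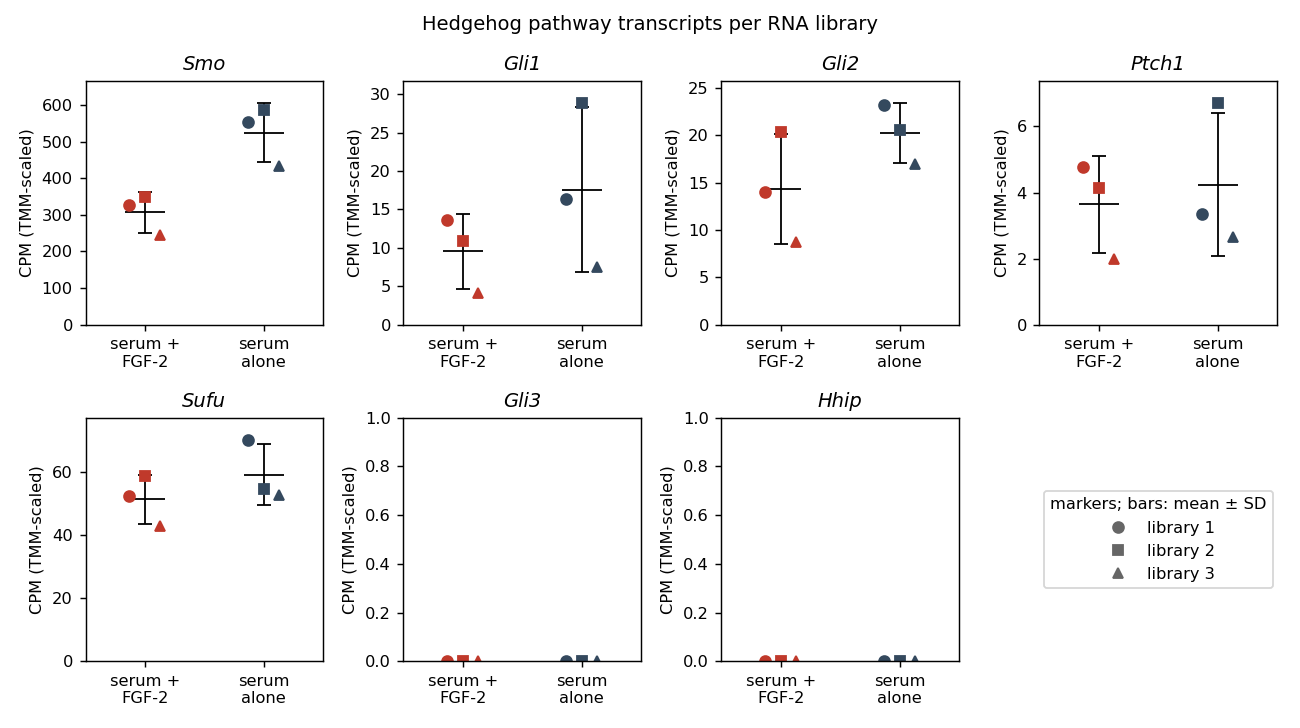
Transcript levels of the 7 members in TMM-scaled CPM (vertical axes, each its own scale from 0) in the 3 serum + FGF-2 libraries (left, red) and the 3 serum libraries (right, dark). Markers are libraries 1 to 3 and bars the mean ± SD. Smo is lower in every serum + FGF-2 library, the groups of the other members with counts overlap, and Gli3 and Hhip are at 0.

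Gli1, Gli2 and Gli3 encode the zinc-finger transcription factors at the end of the pathway. Gli1, an activator that is itself a target gene, lies at chr10:127329882-127341579. Gli1 had 13.65, 10.85 and 4.16 CPM with serum + FGF-2, against 16.35, 28.84 and 7.47 CPM with serum alone. The groups overlapped, and the spread within each was wide, from 23 to 140 counts with serum + FGF-2 and from 45 to 271 counts with serum alone. Its log2 fold change was −0.85 ± 0.55 (SE), larger in size than that of Smo but with an adjusted p of 0.249 by edgeR. The approximate 95% interval, from normal quantiles, was −1.92 to 0.229. The interval thus includes both a decrease larger than that of Smo and no change. With a block for replicate number the adjusted p was 0.0116 by edgeR, though over all genes the numbers showed no clear pairing. The 3′ end of Gli1 overlaps Arhgap9 in the annotation, and how the counting treated strand is not given in the sources used here.

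Gli2, the main activator in many mammalian tissues, spans chr1:118834061-119054405. Gli2 had 14.04, 20.3 and 8.69 CPM with serum + FGF-2, against 23.23, 20.54 and 16.93 CPM with serum alone. The groups overlapped through library 2 with serum + FGF-2, which lay close to library 2 with serum alone. The log2 fold change was −0.47 ± 0.26 (SE), with an adjusted p of 0.177 by edgeR. Without library 2 with serum + FGF-2, the log2 fold change was −0.80 and the adjusted p 0.0247 by edgeR. With all libraries kept, the adjusted p by edgeR was 0.0353 when scaled by library totals and 0.04 with a block for replicate number. The call thus turns on this library, on the scaling and on the block.

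Gli3, in other tissues the main source of GLI repressor, was listed at 0 counts in all 6 RNA libraries, and its gene span, chr13:15463723-15730026, held 0 MACS2 peaks in all 4 H3K27ac libraries. Hhip, a membrane protein that binds and sequesters Hedgehog ligands, likewise had 0 counts in all 6 and 0 peaks in all 4 over chr8:79965850-80058060. The limit that a 0 allows was 0.265 to 0.543 CPM per library (3 counts of the TMM-scaled total), for counting error only. Zero counts alone say little here: 8639 of 24465 genes were listed at 0, among them widely used genes such as Csnk1a1 and Spop, whose promoters were acetylated at 400.9 and 316.4 in mean signal. Of 1818 genes with a promoter region of at least 300 in mean signal, 6.88% were listed at 0. For Gli3 and Hhip the H3K27ac libraries also gave no peak.

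Ptch1 encodes the receptor that both binds the ligand and restrains Smoothened, and its gene spans chr13:63508328-63573460. Ptch1 had 4.78, 4.15 and 1.99 CPM with serum + FGF-2, against 3.35, 6.71 and 2.66 CPM with serum alone. The groups overlapped, and the values rest on 107 counts in all with serum + FGF-2 and 114 with serum alone. The log2 fold change was −0.19 ± 0.39 (SE), with an adjusted p of 0.723 by edgeR and an approximate 95% interval from −0.958 to 0.585. The interval includes changes in both directions.

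Sufu encodes the cytoplasmic inhibitor that holds GLI proteins, and lies at chr19:46396896-46488804. Sufu had 52.45, 58.69 and 43.09 CPM with serum + FGF-2, against 70.27, 54.6 and 52.78 CPM with serum alone. The groups overlapped. Its log2 fold change was −0.20 ± 0.15 (SE), with an adjusted p of 0.30 by edgeR. The approximate 95% interval was −0.496 to 0.0957, the narrowest of the 5 tested members.

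The 5 tested members had a median log2 fold change of −0.47, against −0.02 for all 10374 tested genes, and all 5 values were negative. The members' median was −0.80 without library 2 and −0.24 without library 3 with serum + FGF-2, −0.30 without library 2 with serum alone, and −0.81 with library totals, where that of all genes was −0.36. The log2 fold change of Ptch1 was 0.0464 without library 3 with serum + FGF-2 and 0.31 without library 2 with serum alone. All 5 were also lowest in library 3 of both groups, which 18.3% of tested genes were, and library 3 was the shallowest of each group. The part of these libraries in the members' levels was not tested. In the authors' deposited DESeq2 table the adjusted p was 0.358 for Gli1, 0.204 for Gli2, 0.799 for Ptch1 and 0.472 for Sufu.

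Around the members, 66 other genes of the pathway were in the count files, of which 13 were listed at 0 and 46 were tested. Of these 46, 6 rose and 15 fell with serum + FGF-2, with a median log2 fold change of −0.31, beside 22.1% and 24.2% of all tested genes. Among genes that make and release the ligand, 5 of 9 were tested, 1 rose and 1 fell. Dhh, one of the 3 mammalian Hedgehog ligands, had 42.31, 57.01 and 37.66 CPM with serum + FGF-2, against 30.02, 21.18 and 29.54 CPM with serum alone. The groups did not overlap, and Dhh rose by 0.78 ± 0.19 (log2, SE; adjusted p 0.00764 by edgeR). Scaled by library totals, Dhh had a log2 fold change of 0.44 and an adjusted p of 0.0654 by edgeR. Scube3, of a family of secreted proteins that help release ligand, fell by 1.25 on the log2 scale (adjusted p 7.93e-05 by edgeR), with 58.52 ± 9.0 CPM with serum + FGF-2 and 140.0 ± 9.67 CPM with serum alone (SD, n = 3 each).

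Shh, the ligand made in the adrenal cortex, was singled out after its values were seen. Shh had 37.24, 127.3 and 21.55 CPM with serum + FGF-2, against 161.8, 56.09 and 31.04 CPM with serum alone. Libraries of the same group differed by several fold and the groups overlapped widely. The log2 fold change was −0.41 ± 0.89 (SE), with an adjusted p of 0.738 by edgeR, and it was 0.52 without library 1 with serum alone. Ihh had 2 counts in all with serum + FGF-2 and 2 with serum alone.

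Among 15 genes that receive the ligand or act on Smoothened, 12 were tested, 5 fell and 1 rose, beside 24.2% and 22.1% of all tested genes, with a median log2 fold change of −0.59. With upper-quartile scaling 8 fell and 1 rose, and with library totals 10 fell and 0 rose. The 3 co-receptors Gas1, Cdon and Boc, which help ligand bind Patched, all fell. Gas1, a lipid-anchored co-receptor, had 41.83, 44.83 and 36.94 CPM with serum + FGF-2, against 144.8, 105.9 and 98.09 CPM with serum alone. Its groups did not overlap, and it fell by 1.49 ± 0.16 (log2, SE; adjusted p 8.95e-05 by edgeR). Cdon, an immunoglobulin-family co-receptor, had 22.42, 21.09 and 14.67 CPM with serum + FGF-2, against 39.29, 33.84 and 41.66 CPM with serum alone. It fell by 0.95 ± 0.16 (log2, SE; adjusted p 0.00111 by edgeR), again with no overlap. Boc, a close relative of Cdon, was named after its values were seen. Boc had 2.53, 7.94 and 2.53 CPM with serum + FGF-2, against 44.36, 20.97 and 26.22 CPM with serum alone. It fell by 2.74 ± 0.50 (log2, SE; adjusted p 0.00515 by edgeR).

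**Figure D2:**
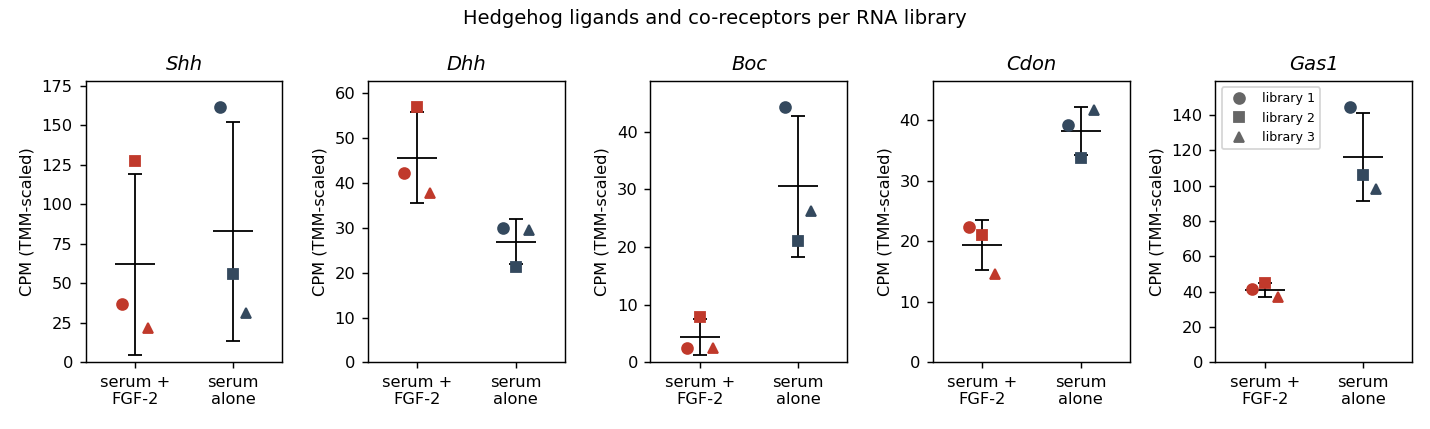
TMM-scaled CPM (vertical axes from 0) of the ligands Shh and Dhh and the co-receptors Boc, Cdon and Gas1 in the 3 serum + FGF-2 libraries (left, red) and the 3 serum libraries (right, dark), with mean ± SD. The groups of Shh overlap, Dhh is higher and Boc, Cdon and Gas1 are lower in every serum + FGF-2 library.

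Gpr161, a ciliary receptor that restrains the pathway, fell by 1.08 ± 0.22 (log2, SE; adjusted p 0.00328 by edgeR). Adrbk1, an older symbol of Grk2, a kinase that acts on Smoothened, rose by 0.51 ± 0.11 (log2, SE; adjusted p 0.00378 by edgeR), with an adjusted p of 0.184 under library totals.

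Among 16 genes of GLI processing and its regulation, 12 were tested, 4 rose and 1 fell, beside 22.1% and 24.2% of all tested genes. With upper-quartile scaling 2 rose and 1 fell, and with library totals 1 rose and 4 fell, so the balance of the list turns with the scaling. Csnk1e, a casein kinase, rose by 0.87 ± 0.12, Cul3, a ubiquitin-ligase scaffold, by 0.54 ± 0.11, and Csnk1d by 0.35 ± 0.10 (log2, SE; adjusted p 0.000348, 0.00256 and 0.0157 by edgeR). Under library totals only Csnk1e of these 3 passed the test, and Csnk1d had an adjusted p of 0.0582 without library 1 and 0.0539 without library 2 with serum alone. Prkaca, a catalytic subunit of protein kinase A, fell by 0.47 ± 0.12 (log2, SE; adjusted p 0.00862 by edgeR).

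Among 14 genes of the primary cilium, the organelle through which the pathway runs, 13 were tested, 7 fell and 0 rose, beside 24.2% and 22.1% of all tested genes. Rpgrip1l, of the ciliary transition zone, fell by 1.17 ± 0.17 (log2, SE; adjusted p 0.000584 by edgeR). Tulp3, an adaptor that carries receptors into the cilium, fell by 0.82 ± 0.13, and Kif3a, a motor subunit of ciliary transport, fell by 0.66 ± 0.15 (log2, SE; adjusted p 0.000638 and 0.00516 by edgeR). The median over the 13 was −0.44. Upper-quartile scaling gave 10 falling genes, library totals gave 11, and 5 fell without library 1 with serum + FGF-2. Among 13 genes reported as targets in other tissues, 8 were listed at 0 and 5 were tested. Jag2, a Notch ligand, fell by 1.57 ± 0.38 (log2, SE; adjusted p 0.00764 by edgeR), and Ccnd1, a cyclin, had 569.7, 537.3 and 483.6 CPM with serum + FGF-2 against 532.1, 493.1 and 505.2 CPM with serum alone (adjusted p 0.716 by edgeR).

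**Figure D3:**
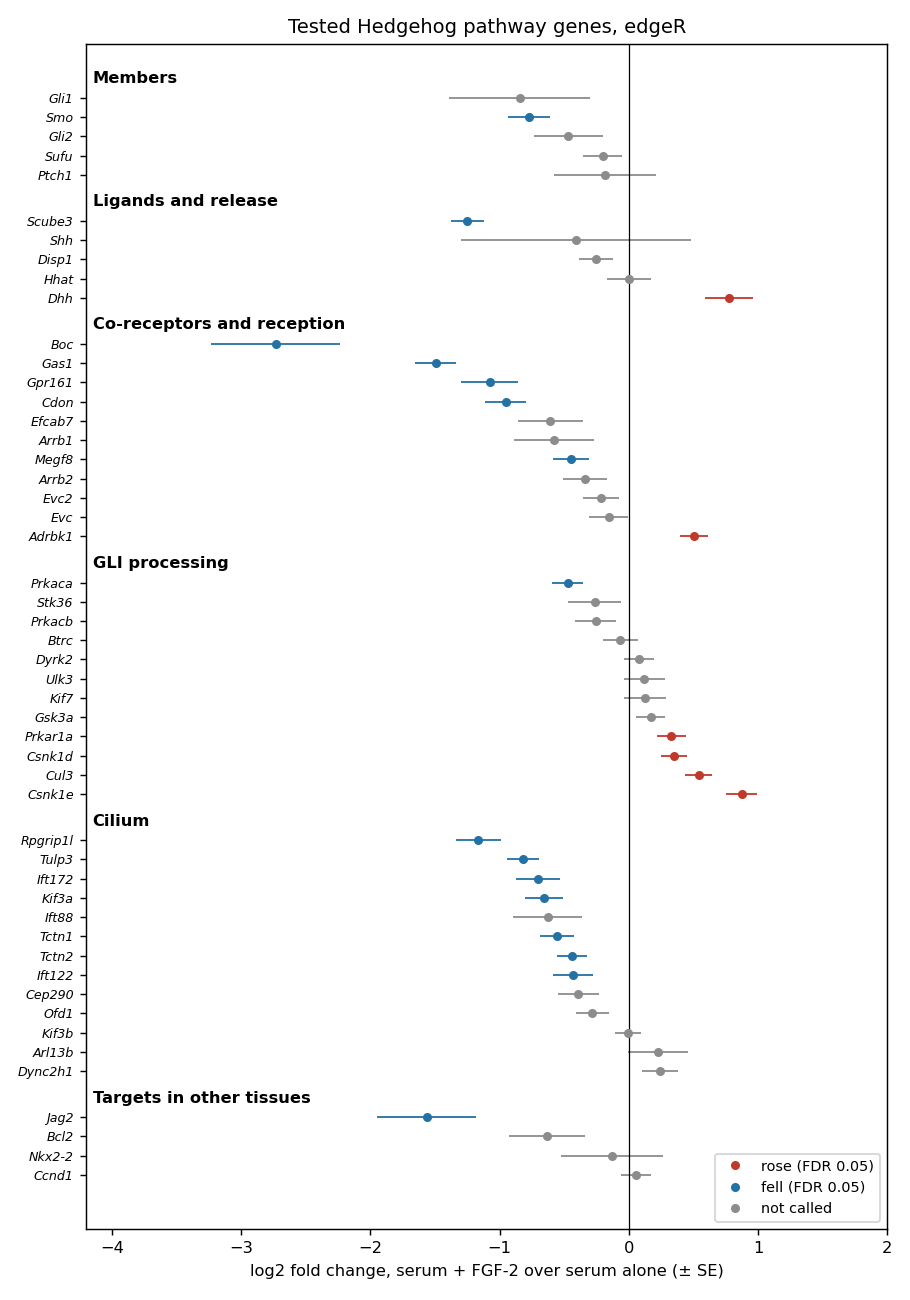
Log2 fold changes (horizontal axis, serum + FGF-2 over serum alone, bars ± SE) of the 5 tested members and the other tested pathway genes reported here, grouped by role. Red genes rose, blue genes fell and grey genes did not pass the test; 1 member and 15 other genes are blue, 6 are red.

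The H3K27ac libraries held 12447135 and 11840994 fragments with serum + FGF-2 and 12856806 and 14156846 with serum alone. Of the 34 member regions, 18 were assigned to Gli2, 10 to Sufu, 3 to Ptch1, 2 to Gli1, 1 to Smo and 0 to Gli3 and Hhip. They comprised 19 intronic, 7 promoter and 4 distal intergenic regions, with 2 in exons, 1 in a 3′ untranslated region and 1 downstream of Ptch1. A MACS2 peak of the library overlapped 29 and 29 of the 34 regions with serum + FGF-2 and 31 and 31 with serum alone, and 25 regions had a peak in all 4 libraries. Values are the authors' normalised signal per region, in units of scaled reads.

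By limma on log2(signal + 1) over all 40772 regions, 5 of the 34 member regions were called, 2 higher and 3 lower with serum + FGF-2. Over all regions 16.3% were called, 12.6% higher and 3.73% lower. The authors' deposited table gave a false discovery rate under 0.05 to 4 member regions, 1 higher and 3 lower, where 9.98% of all regions did, 8.33% higher and 1.64% lower. The authors' subset label was FGF_down for the 3 lower regions and Unchanged for the higher region. edgeR on the whole reads recovered from the signals called 7 of 34, where it called 17.3% of all regions. The groups did not overlap in 16 of the 34 regions, where 51.5% of all regions did not overlap. The median log2 fold change was −0.05 over the member regions and 0.11 over all regions. Without library 1 or library 2 with serum + FGF-2 the members' median was 0.0594 or 0.0175, and without library 1 or library 2 with serum alone it was 0.20 or −0.25, so its sign is not settled. By edgeR the medians were −0.17 over the member regions and −0.0175 over all regions, with 4315 of all regions called higher and 2726 lower, against 5145 and 1521 by limma. All 5 called regions were intronic, where 21.3% of all intronic regions and 5.7% of all promoter regions were called.

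The Smo promoter region, chr6:29734913-29737541, contains the whole sequence shown above. Smo had a promoter signal of 520.2 and 684.0 with serum + FGF-2, against 763.4 and 591.7 with serum alone. The groups overlapped, and the log2 fold change on the log2(signal + 1) scale was −0.17 ± 0.23 (SE; adjusted p 0.731 by limma), beside the fall of its transcript. Its mean signal per kb, 243, exceeded that of 99.2% of 12484 regions within 1 kb of a start site. It was the 1 H3K27ac region of Smo. MACS2 gave its peak a fold over background of 41.9 and 38.8 with serum + FGF-2 and 64.4 and 52.0 with serum alone. The inputs behind these folds and the peak calls held 12241177 and 12576377 fragments with serum + FGF-2 and 15672630 and 110273836 with serum alone; the part of the deep input of serum library 2 was not tested.

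The main Ptch1 promoter region, chr13:63562419-63568779, was the widest member region at 6361 bases. Ptch1 had a signal of 653.3 and 772.0 there with serum + FGF-2, against 984.4 and 642.7 with serum alone. The groups overlapped (log2 fold change −0.16 ± 0.23, SE; adjusted p 0.743 by limma), with serum library 1 highest. Without serum library 2, which lay near the serum + FGF-2 values, the log2 fold change was −0.47 and the adjusted p 0.00936 by limma. Its signal per kb, 120, exceeded that of 76.8% of promoter regions, in cells where the Ptch1 transcript gave 11 to 63 counts per library. A second Ptch1 promoter region near an inner start site and a region just past the 3′ end, chr13:63506212-63508327, were also not called by limma. The region past the 3′ end was lower in both serum + FGF-2 libraries, with 173.1 and 147.0 against 237.6 and 179.7 with serum alone, and edgeR on recovered reads gave it an adjusted p of 0.0295, as did limma without serum library 2 with 0.0433.

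The promoter regions of Gli1, Gli2 and Sufu had lower signals per kb, of 57.8, 65.8 and 106, than that of Smo. Gli1 had 181.6 and 160.0 with serum + FGF-2, against 157.5 and 135.4 with serum alone, without overlap (log2 fold change 0.22 ± 0.26, SE; adjusted p 0.674 by limma). Gli2 had 132.2 and 179.0 with serum + FGF-2, against 194.3 and 134.6 with serum alone, with overlap. Sufu had 112.2 and 124.0 with serum + FGF-2, against 128.0 and 96.9 with serum alone, with overlap. Over the 7 promoter regions the log2 fold changes lay between −0.17 and 0.22.

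**Figure D4:**
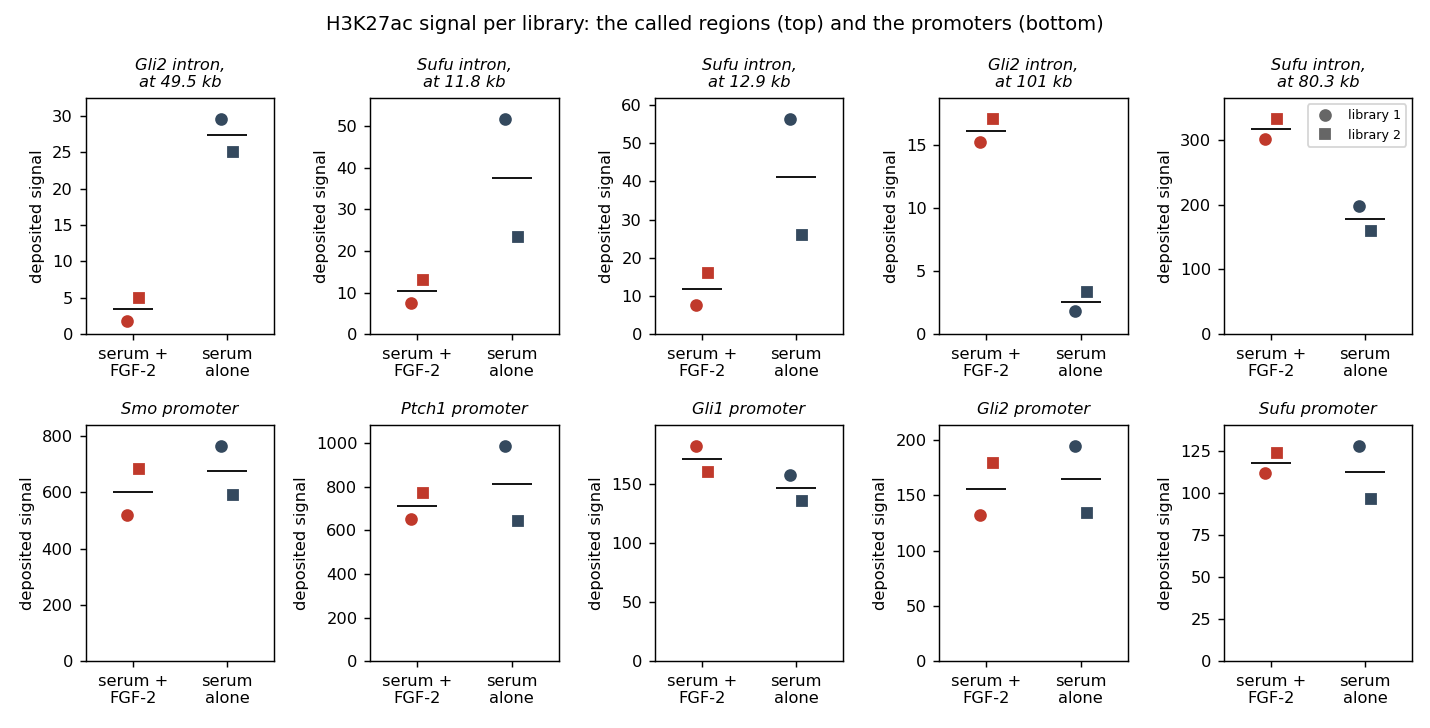
Deposited H3K27ac signal (vertical axes from 0) in the 2 serum + FGF-2 libraries (left, red) and the 2 serum libraries (right, dark) for the 5 called intronic regions (top, with the distance from the start site) and the main promoter regions of 5 members (bottom). Lines are group means. The called regions show no overlap between groups, and 4 of the 5 promoters overlap.

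Gli2 carried the most regions, 13 in introns, 1 at its promoter and 4 upstream, at −69.2 to −143 kb from the start. The region 49.5 kb into the gene, in intron 1 at chr1:119003406-119004080, had signals of 1.9 and 5.0 with serum + FGF-2, against 29.47 and 25.07 with serum alone. MACS2 called a peak there in 0 of 2 serum + FGF-2 libraries and in both serum libraries. It fell by 2.76 ± 0.62 (log2(signal + 1), SE; adjusted p 0.000222 by limma), and the authors' deposited table gave a false discovery rate of 0.00559. The size of the fall depended on the scale: it was −1.95 on log2(signal + 5) and −2.93 on log2(signal + 0.5). The region's mean signal over the libraries exceeded that of 21% of all regions. Its neighbour 163 bases away, with 10.46 and 7.0 with serum + FGF-2 against 14.73 and 18.39 with serum alone, was not called (adjusted p 0.341 by limma).

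A region 101 kb into Gli2, in intron 2 at chr1:118952260-118952606, went the other way. It had signals of 15.22 and 17.0 with serum + FGF-2, against 1.84 and 3.34 with serum alone, and peaks in both serum + FGF-2 libraries and in neither serum library. It rose by 2.28 ± 0.73 (log2(signal + 1), SE; adjusted p 0.0153 by limma), but the authors' deposited table gave a false discovery rate of 0.065. Its signal was low: its mean over the libraries exceeded that of 4.38% of all regions. A filter at a mean signal of at least 10 left this region out. Without library 1 or library 2 with serum + FGF-2 the adjusted p was 0.233 or 0.269 by limma. The wider region 166 bases away had 74.17 and 92.0 with serum + FGF-2, against 64.46 and 39.28 with serum alone (log2 fold change 0.70 ± 0.30, SE; adjusted p 0.0995 by limma), and it was called without serum library 1, with an adjusted p of 0.00623. Both lie in the span of a long noncoding RNA gene, Gm51642. The 4 upstream regions had log2 fold changes between −0.19 and 0.14 and were not called.

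Sufu had 2 neighbouring regions in intron 1 that fell together, 11.8 and 12.9 kb from the start and 200 bases apart. The first, chr19:46408703-46409586, had signals of 7.61 and 13 with serum + FGF-2, against 51.57 and 23.4 with serum alone. The second, chr19:46409787-46410562, had 7.61 and 16.0 with serum + FGF-2, against 56.17 and 25.91 with serum alone. In both, peaks were called in 0 of 2 serum + FGF-2 libraries and in both serum libraries, and serum library 1 stood well above serum library 2. The first fell by 1.71 ± 0.45 and the second fell by 1.70 ± 0.43 (log2(signal + 1), SE; adjusted p 0.00226 and 0.00147 by limma). Without library 1 with serum + FGF-2 the adjusted p was 0.106 and 0.153 by limma, and without library 1 with serum alone it was 0.209 and 0.182.

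Further along Sufu, 80.3 kb from the start at chr19:46477243-46480436, a region of 3194 bases had signals of 301.5 and 331.0 with serum + FGF-2, against 198.0 and 158.8 with serum alone. Peaks were called in all 4 libraries. It rose by 0.83 ± 0.25 (log2(signal + 1), SE; adjusted p 0.0095 by limma), and the authors' deposited table gave a false discovery rate of 0.00385. The same table nevertheless labelled this region as Unchanged. Without library 1 or library 2 with serum + FGF-2 the adjusted p was 0.298 or 0.371. A region over an exon 85 kb from the start, with signals of 411.8 and 426.0 with serum + FGF-2 against 402.4 and 330.1 with serum alone, was not called (adjusted p 0.683 by limma). Sufu thus held regions that moved in opposite directions, beside a transcript level that did not pass the test.

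**Figure D5:**
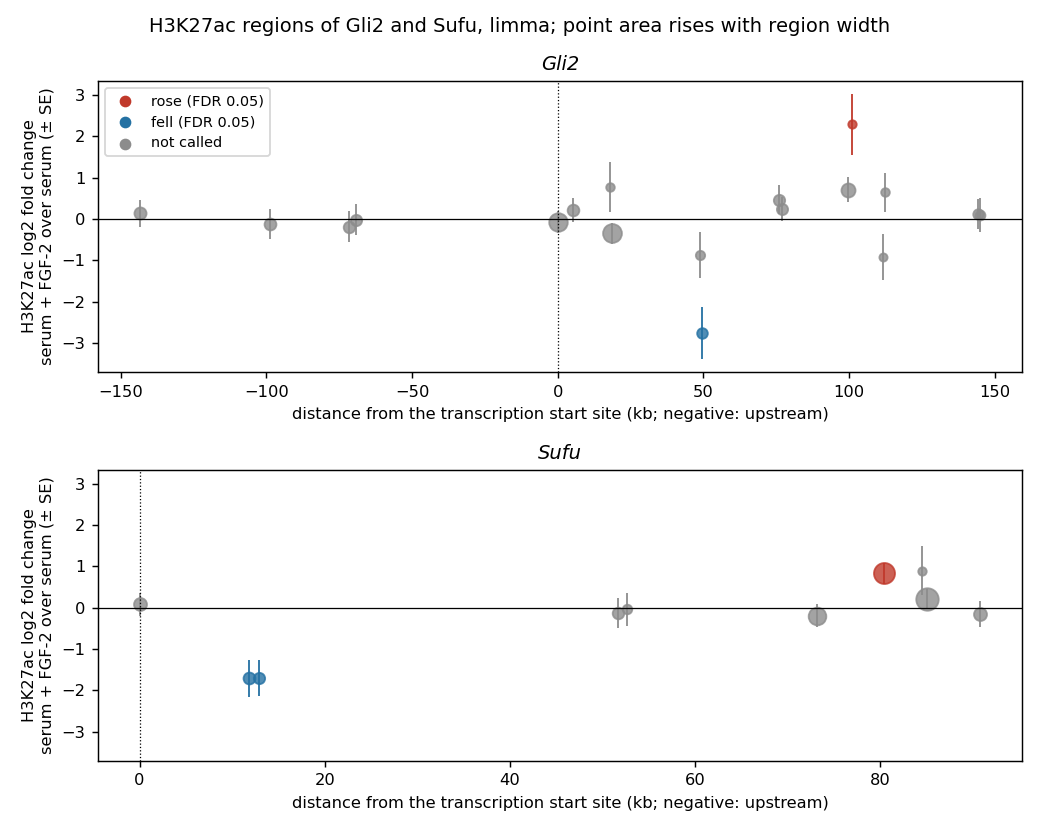
H3K27ac log2 fold changes (vertical axis, serum + FGF-2 over serum alone, bars ± SE) of the 18 Gli2 and 10 Sufu regions by distance from the transcription start site in kb (horizontal axis, negative upstream). Red regions rose, blue fell and grey were not called. In Gli2 the called regions lie at 49.5 and 101 kb, in Sufu at 11.8, 12.9 and 80.3 kb, and both promoters lie near 0.

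Some member regions came in close pairs. Of 29 gaps between neighbouring regions of the same member, 10 were at most 250 bases wide, from 117 to 202 bases, a share of 34.5%. Over all neighbouring regions on a chromosome the share was 19%. That share also counts neighbours assigned to different genes, so it is not a like measure. The limit of 250 bases was chosen after the gaps were seen. Within a pair the changes could differ in sign, as in Gli2 112 kb from the start, where regions 202 bases apart had log2 fold changes of 0.64 and −0.92, neither called.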

How the data were processed

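Y1 RNA was compared over 3 libraries per group and H3K27ac over 2. The members and the other gene lists were chosen with earlier results of these data known. All 7 members and their regions are named; of the other lists, up to 3 called genes in each direction by p, and genes singled out later are marked. Some genes of the lists are counted but not reported here. RNA values are raw counts per gene that the authors deposited as HTSeq output. Reads outside genes, 37% to 43.2% per library, were left out. The authors' deposited region table gives a signal per library, log2 folds, p-values and false discovery rates, per the file headers. Its signals came out as whole reads, times a factor per library, for 99.98% to 100% of values within 0.02 reads. The peak files give pileup signal, −log10 p and q and a fold (a ratio over background), per the file headers, from MACS2 calls per library against its own input. The submitters' processing notes name HTSeq 0.10.0, DESeq2, STAR 2.5.2a, mm10, DiffBind, MACS2 2.2.6 and ChIPseeker. The counting's annotation and strand setting: not given in the sources used here.

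RNA was tested with edgeR 4.0.16 (R 4.3.3; TMM, filterByExpr, robust quasi-likelihood) on all genes and regions with limma 3.58.1 (trend, robust) on log2(signal + 1), with Benjamini-Hochberg adjustment at 0.05. Alternatives used DESeq2 1.42.0, limma-voom, other scalings and filters, edgeR on recovered reads, replicate blocks and left-out libraries. Both tests were first run on simulated data. The simulated regions all had the same set dispersion, not estimated from these libraries, so this run cannot show that the region calls hold here. Peaks overlapped a region by at least 1 base. No pair of replicate RNA libraries was a repeat deposit (chi-square over its degrees of freedom 9.58 to 25.6). Floors cover counting error only. The SE of an RNA log2 fold change was back-calculated, as the size of the change divided by the square root of edgeR's F statistic. Intervals of log2 fold changes also hold the spread between libraries. They use normal quantiles with the SE, so with few libraries they are narrower than edgeR's F test implies. Figures used Python 3.11.15 with matplotlib 3.10.9.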

Additional observations from a re-analysis of the deposited data

How the results depend on the processing

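The fall of Smo held under all 13 other RNA settings, with log2 fold changes from −1.12 to −0.63 and adjusted p from 0.000117 to 0.0207. The count of members called, 1, was 3 with library totals, which added Gli2 and Sufu, and 1 to 2 without single libraries. Replicate numbers showed no clear pairing of the RNA libraries. Deviations of same-numbered libraries correlated at −0.125, 0.054 and 0.387, and 1 of 3 numbers matched its own best. With 3 libraries per group, this check cannot exclude pairing. With a replicate block 3 members were called, adding Gli1 (adjusted p 0.0116) and Gli2 (0.04); 22 other pathway genes were called against 21, and 5017 of all genes against 4807. Other pathway calls were 17 to 22 without single libraries and 30 with library totals, 1 higher and 29 lower, against 6 and 15. Upper-quartile scaling gave 26, 4 higher and 22 lower; over all genes it gave 1616 higher and 3320 lower. Ptch1 turned positive without single libraries (range −0.41 to 0.31), as did Shh (−1.48 to 0.52). Boc had an adjusted p of 0.0612 with the block.

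Calls among the member regions, 5, were 1 to 8 without single libraries (1 without library 1 and 3 without library 2 with serum + FGF-2, 4 without library 1 and 8 without library 2 with serum alone), 4 with the authors' deposited test, 4 with a replicate block and 7 by edgeR. All regions called were 6666, against 1743 to 7382 without single libraries and 4068 by the authors' test. The fall of the Gli2 region at 49.5 kb passed under all 11 settings (highest adjusted p 0.0187); the Sufu region at 80.3 kb had 0.0883 with the block. H3K27ac deviations correlated at −0.217 between same-numbered libraries; with crossed pairing, chosen after seeing the data, 8424 regions and 6 member regions were called.

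Regions not called turned sign without single libraries, with these log2 ranges by distance from the start: Gli1 at 2.25 kb: −0.43 to 0.25, Gli2 at 145 kb: −0.0946 to 0.29, Gli2 at 144 kb: −0.34 to 0.57, Gli2 at 77 kb: −0.10 to 0.57, Gli2 at 5.3 kb: −0.23 to 0.66, Gli2 at 0 kb: −0.33 to 0.19, Gli2 at −69.2 kb: −0.36 to 0.32, Gli2 at −71.7 kb: −0.66 to 0.28, Ptch1 at 0.119 kb: −0.37 to 0.14, Ptch1 at 0 kb: −0.47 to 0.14, Smo at 0 kb: −0.37 to 0.0254, Sufu at 0.041 kb: −0.12 to 0.28, Sufu at 51.7 kb: −0.36 to 0.12, Sufu at 52.7 kb: −0.35 to 0.28, Sufu at 73.2 kb: −0.41 to 0.0235, Sufu at 90.8 kb: −0.52 to 0.21. By edgeR on recovered reads these fell below 0: Gli2 at 145 kb (−0.0327), Gli2 at 144 kb (−0.0497), Gli2 at −143 kb (−0.00184), Sufu at 0.041 kb (−0.053), and with the block added, a setting chosen after seeing the data, Gli2 at 145 kb (−0.0322), Gli2 at 144 kb (−0.0238), Sufu at 0.041 kb (−0.0536). The cause was not tested for any of these.

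Ptch1 had the fewest counts of the 5 tested members, 11 to 63 per library.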
